A study of Mus musculus with 6 samples.

Results

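The genes described here are 36 postsynaptic scaffold and synaptic adhesion genes, measured in the hippocampus of adult mice that had received ethanol or saline as pups. They were chosen by name: each probe set whose platform annotation gives a single symbol on the list was taken, and where a gene had several, the brightest probe set, averaged over the 6 arrays, stood for it. All 36 were measured, out of 19938 genes with a single-symbol probe set, so no gene of the list was lost. Both groups were C57BL/6J males of 70 days. Ethanol mice had been injected under the skin with ethanol at 2.5 g/kg in saline solution, with 2 injections a day at the ages of 4 and 7 days, and saline mice were littermates injected on the same schedule without ethanol. Each Mouse Gene ST array held the pooled RNA of 3 males from different litters. There were 3 such pools of ethanol mice and 3 of saline mice, from 9 animals of each group. The values are log2 expression levels after RMA, a method that corrects background, brings all arrays to a common distribution and joins the readings of a probe set into 1 value.

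At an excitatory synapse, MAGUK scaffold proteins of the PSD-95 family lie under the membrane and hold glutamate receptors, while SAPAP proteins link them to SHANK and HOMER scaffolds deeper in the postsynaptic density. CaMKII, a kinase that is very abundant there, responds to calcium. Across the cleft, presynaptic neurexins bind postsynaptic neuroligins and LRRTM proteins, and presynaptic receptor tyrosine phosphatases bind SLITRK and several LRFN (SALM) proteins. These contacts organize new synapses, and gephyrin serves as the scaffold of inhibitory ones.

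Of the 36 genes, 4 differed between ethanol and saline at an unadjusted p under 0.05 in limma, 2 higher (Lrrtm2 and Slitrk6) and 2 lower (Dlg2 and Slitrk2) in ethanol pools. This is 11.1% of the list, beside 5.22% of all 19938 genes (2.80% higher and 2.41% lower). The authors had reported Slitrk6 as higher in ethanol from these same arrays, so this count is not independent of their results. After Benjamini-Hochberg adjustment over all tested probe sets, 0 of the 36 passed, as did 0% of all genes, and adjusted p in the list lay between 0.931 and 0.998. In 7 genes (19.4%) the values of the ethanol and saline pools were fully separate, beside 10.4% of all genes (5.35% higher and 5.09% lower). Lrrtm1, Lrrtm2 and Slitrk6 were higher in every ethanol pool than in any saline pool, and Dlg2, Dlgap2, Slitrk2 and Slitrk4 were lower. Changes of the list went both ways. In all, 20 genes lay above and 16 below their saline mean, with a median change of 0.008, against 0 for all genes. The median size of a change was 0.036 in the list and 0.037 in all genes.

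**Figure D1:**
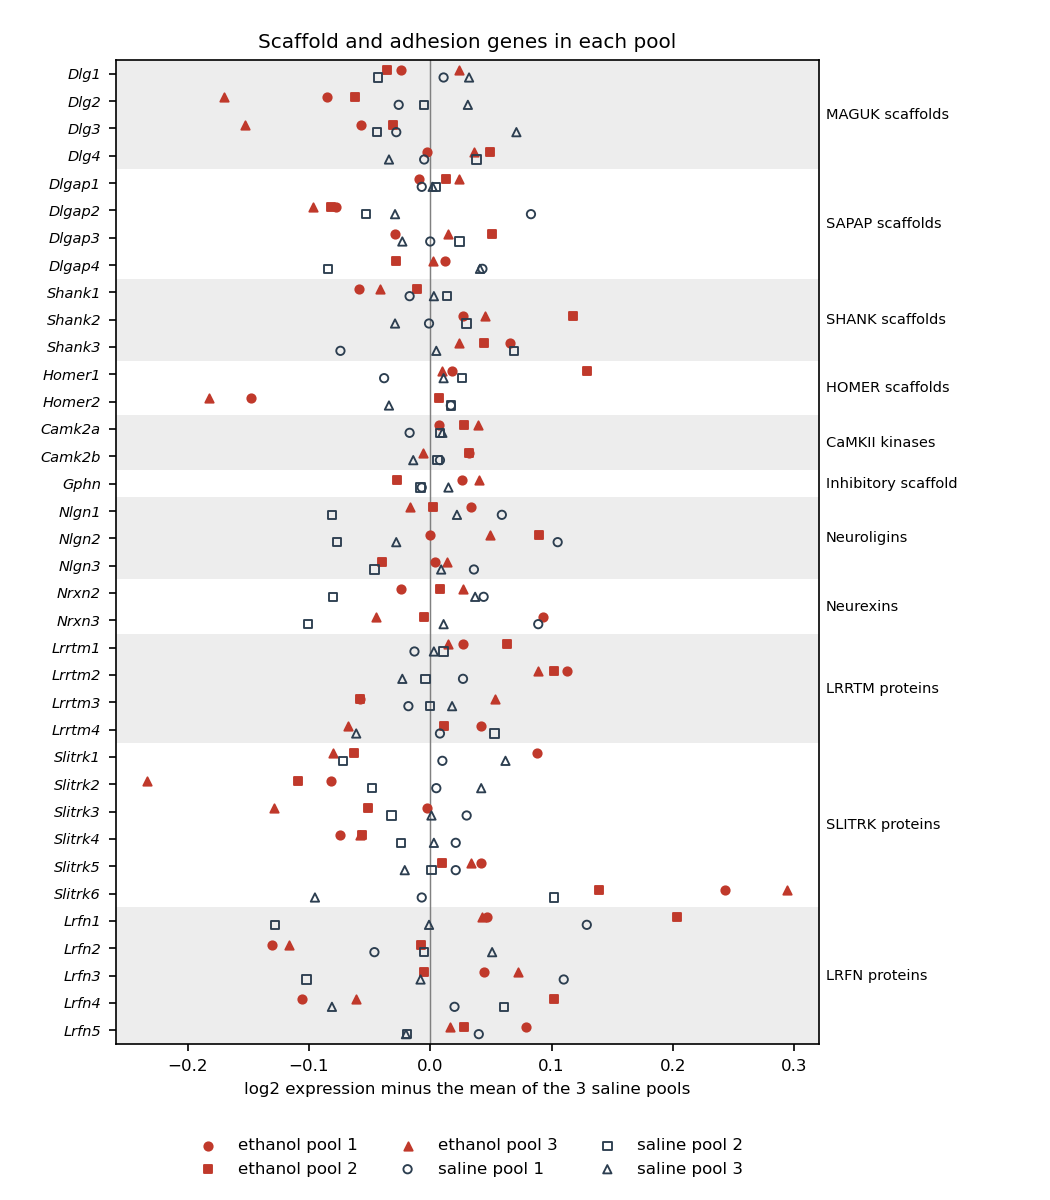
Log2 expression of each of the 36 genes in each pool, minus that gene's mean over the 3 saline pools. Filled red symbols are ethanol pools, open symbols are saline pools, and shaded bands mark the protein families. In 7 genes the red and open symbols do not overlap, and most points lie within 0.1 of the saline mean.

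The 250 bases before the most upstream RefSeq start are shown for 3 of the 4 genes that passed the unadjusted threshold, since these genes carry the differences described below. They are from assembly GRCm38.p6 and are written on the gene's own strand, with motif matches in capitals.
Dlg2, chr7:91090536-91090785, plus strand: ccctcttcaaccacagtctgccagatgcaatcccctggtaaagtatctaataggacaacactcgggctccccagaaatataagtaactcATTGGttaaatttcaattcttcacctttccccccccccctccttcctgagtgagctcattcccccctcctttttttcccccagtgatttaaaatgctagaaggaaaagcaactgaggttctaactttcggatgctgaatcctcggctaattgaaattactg
Slitrk2, chrX:66649068-66649317, plus strand: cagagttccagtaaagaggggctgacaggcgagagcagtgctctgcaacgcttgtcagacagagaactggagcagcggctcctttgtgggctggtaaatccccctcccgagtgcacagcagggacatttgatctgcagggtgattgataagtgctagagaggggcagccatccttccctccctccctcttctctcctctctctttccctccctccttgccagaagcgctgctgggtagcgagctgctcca
Slitrk6, chr14:110755150-110755399, minus strand: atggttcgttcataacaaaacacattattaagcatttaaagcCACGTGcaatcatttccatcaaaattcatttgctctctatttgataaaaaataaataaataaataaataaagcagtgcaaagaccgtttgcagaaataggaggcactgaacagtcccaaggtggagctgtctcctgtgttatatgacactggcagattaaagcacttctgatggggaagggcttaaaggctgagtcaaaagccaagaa
The motifs searched, on both strands, were the TATA box as TATAAA, the CCAAT box, the GC box as GGGCGG, an E-box as CACGTG and the cAMP response element as TGACGTCA, within windows of 300 bases that also take in the 50 bases after the start. In the printed part, Dlg2 held CCAAT on the opposite strand at position -161, printed as ATTGG, and Slitrk6 held CACGTG at position -208. Slitrk2 held no match to any of them. The table lists 3 starts for Dlg2, 2 for Slitrk2 and 1 for Slitrk6. A further CCAAT of Dlg2 lies at position 20, after the start. Windows were found for 26 of the 36 genes. Among these 26, CCAAT occurred in 3 (11.5%, beside 38% of 27025 genes), CACGTG in 3 (11.5% beside 7.24%), GGGCGG in 10 (38.5% beside 35.9%), TATAAA in 1 (3.85% beside 14.2%) and TGACGTCA in 0 (0% beside 1.85%). Their median GC content was 57.8%, against 52.7% for all genes, and ranged from 38.3% in Slitrk6 to 82.3% in Homer2. The windows of Dlg2, Slitrk2 and Slitrk6 held 3, 8 and 4 CG pairs, beside a median of 12 in the 26 genes and 7 in all genes. A match is only a run of letters and was set against no binding data.

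Among the MAGUK scaffolds, Dlg2 was lower in ethanol pools and the other members of the family did not pass. Dlg2 encodes PSD-93, a close relative of PSD-95 that also holds NMDA receptors at the synapse. Its levels were 11.28, 11.31 and 11.20 in ethanol pools, against 11.34, 11.36 and 11.40 in saline pools. All ethanol pools thus lay below all saline pools, and pool 3 of ethanol was lowest. The log2 change was -0.11 ± 0.04 (SE), or 0.929-fold (95% confidence interval 0.867 to 0.996). It had an unadjusted p = 0.0403 and an adjusted p = 0.931 in limma. Leaving out ethanol pool 3 gave a change of -0.07 (unadjusted p = 0.129 in limma), and Dlg2 also missed the threshold without ethanol pool 1 (-0.12, unadjusted p = 0.056), saline pool 2 (-0.11, unadjusted p = 0.0721) or saline pool 3 (-0.09, unadjusted p = 0.127). With the replicate number as a block it had unadjusted p = 0.072 in limma, and with median centring unadjusted p = 0.0586.

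Dlg4, which encodes PSD-95 itself, averaged 11.86 ± 0.03 in ethanol pools and 11.84 ± 0.04 in saline pools (SD, 3 pools each), and the interval of its fold, 0.957 to 1.09, took in 1. Dlg3, for the related SAP102, had 9.75, 9.78 and 9.65 in ethanol pools, against 9.78, 9.76 and 9.88 in saline pools, a change of -0.08 ± 0.05 (unadjusted p = 0.147 in limma). As in Dlg2, ethanol pool 3 was the lowest of the 6. Dlg1, for SAP97, had a change of -0.01 ± 0.04. In all, 3 of the 4 MAGUK genes lay below their saline mean, with a median of -0.046 for the family.

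None of the 4 SAPAP genes passed. Dlgap2, one of the SAPAP linkers between MAGUK and SHANK proteins, was the family's largest change. It had 9.33, 9.33 and 9.32 in ethanol pools, against 9.49, 9.36 and 9.38 in saline pools. The ethanol pools were nearly equal and lay below all saline pools, of which pool 1 stood highest. The change was -0.09 ± 0.05, or 0.942-fold (0.876 to 1.01), with unadjusted p = 0.0969 in limma. Dlgap1, Dlgap3 and Dlgap4 had changes of 0.01, 0.01 and 0 with standard errors of 0.04 to 0.05, and their pools overlapped.

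The SHANK genes, for the large scaffolds that join SAPAP and HOMER proteins, also gave no gene past the threshold with their brightest probe sets. Shank2 had 8.83, 8.92 and 8.85 in ethanol pools, against 8.80, 8.83 and 8.77 in saline pools, a change of 0.06 ± 0.04 (unadjusted p = 0.168 in limma). The lowest ethanol pool and the highest saline pool met at 8.83. Shank2 was read by 3 probe sets, and each was higher on average in ethanol pools. The second gave 8.16, 7.95 and 8.08 in ethanol pools, against 8.02, 7.82 and 8.01 in saline pools (0.12 ± 0.07, unadjusted p = 0.135). The third and dimmest gave 5.88, 5.64 and 5.86 in ethanol pools, against 5.57, 5.64 and 5.62 in saline pools. Its change of 0.18 ± 0.06 had unadjusted p = 0.0205 and adjusted p = 0.931 in limma, with ethanol pool 2 level with saline. With the mean of its 3 probe sets in place of the brightest, Shank2 differed by 0.12 (unadjusted p = 0.0232). Shank1 had a change of -0.04 ± 0.04 and Shank3 of 0.04 ± 0.05, with overlapping pools in both.

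**Figure D2:**
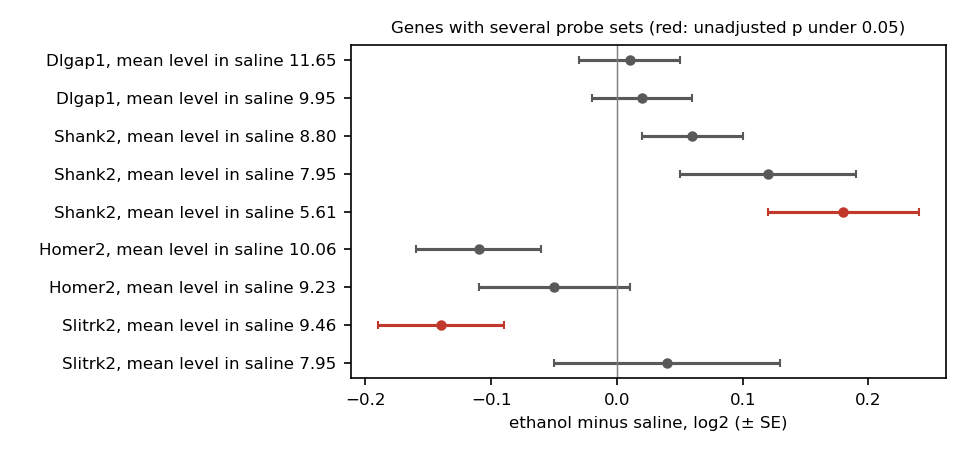
Log2 change, ethanol minus saline, of each probe set of the 4 genes with several, with SE bars, listed from brightest to dimmest within a gene with its mean level in saline pools. All 3 probe sets of Shank2 lie above 0, while the bright and the dim probe set of Slitrk2 lie on opposite sides of it.

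HOMER proteins tie SHANK to metabotropic glutamate receptors. Homer2 had 9.91, 10.07 and 9.88 in ethanol pools, against 10.08, 10.08 and 10.03 in saline pools. Ethanol pools 1 and 3 lay below all saline pools, while pool 2 was level with them. The change was -0.11 ± 0.05 (unadjusted p = 0.083 in limma), and its other probe set gave -0.05 ± 0.06. Without ethanol pool 2 the change was -0.16 (unadjusted p = 0.00756 in limma), so that this 1 array decided whether Homer2 passed. Homer1, whose short form is induced by activity and competes with the long ones, had a change of 0.05 ± 0.05, with its highest value, 10.11, in the same ethanol pool 2. The array summary used here does not separate these forms.

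The 2 kinase genes and the gephyrin gene differed little between groups. Camk2a, for the alpha subunit of CaMKII, had 12.95, 12.97 and 12.98 in ethanol pools, against 12.93, 12.95 and 12.96 in saline pools (1.02-fold, 0.96 to 1.08). Camk2b, for the beta subunit, had a change of 0.02 ± 0.04 (1.01-fold, 0.956 to 1.07). Gphn, for gephyrin, which anchors glycine and GABA-A receptors, had 10.52, 10.46 and 10.53 in ethanol pools, against 10.48, 10.48 and 10.50 in saline pools. Its fold was 1.01 (0.949 to 1.07). The pools overlapped in all 3 genes, and their intervals leave room for differences of several percent in either direction.

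Neuroligins and neurexins, the best known pair across the cleft, did not pass either. Nlgn2, which acts mainly at inhibitory synapses, had 9.80, 9.89 and 9.85 in ethanol pools, against 9.90, 9.72 and 9.77 in saline pools. Its pools overlapped, with a change of 0.05 ± 0.05 (unadjusted p = 0.421 in limma). Nlgn1, which acts mainly at excitatory synapses, and Nlgn3, found at both, had changes of 0.01 ± 0.05 and -0.01 ± 0.04. Nrxn3 had 10.66, 10.56 and 10.52 in ethanol pools, against 10.65, 10.46 and 10.58 in saline pools, a change of 0.01 ± 0.06, and Nrxn2 had one of 0 ± 0.05. The neurexins have alpha and beta forms from separate starts and many splice forms, which a single value per gene does not separate.

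Of the 4 LRRTM genes, Lrrtm2 was higher in ethanol pools. LRRTM2 is a postsynaptic leucine-rich repeat protein that binds neurexins and PSD-95. Its gene had 11.30, 11.29 and 11.28 in ethanol pools, against 11.22, 11.19 and 11.17 in saline pools. The groups averaged 11.29 ± 0.01 in ethanol and 11.19 ± 0.03 in saline (SD), and they did not overlap. The change of 0.10 ± 0.04 (SE), or 1.07-fold (1.01 to 1.14), had unadjusted p = 0.0252 and adjusted p = 0.931 in limma. With any 1 array left out the change stayed between 0.09 and 0.12. It no longer passed without ethanol pool 1 (0.10, unadjusted p = 0.0666), ethanol pool 2 (0.10, unadjusted p = 0.056), saline pool 2 (0.10, unadjusted p = 0.0573) or saline pool 3 (0.09, unadjusted p = 0.0877), nor with the replicate number as a block (unadjusted p = 0.0506 in limma).

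Lrrtm2 lies inside Ctnna1, which encodes an alpha-catenin of cell junctions. Ctnna1 had 8.42, 8.25 and 8.44 in ethanol pools, against 8.34, 8.31 and 8.46 in saline pools, a change of 0 ± 0.06, with overlapping groups. Lrrtm1 lies inside Ctnna2 in the same way. It had 9.77, 9.81 and 9.76 in ethanol pools, against 9.73, 9.76 and 9.75 in saline pools. Its ethanol pools were just above all saline pools, by less than the second decimal shows, with a change of 0.03 ± 0.04 (unadjusted p = 0.378 in limma), and Ctnna2 had one of 0.02 ± 0.04. Lrrtm3, inside Ctnna3, and Lrrtm4, which binds heparan sulfate proteoglycans, had changes of -0.02 ± 0.04 and 0 ± 0.05.

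The SLITRK genes, for membrane proteins that bind presynaptic receptor phosphatases, held 2 of the 4 genes past the unadjusted threshold, in opposite directions. Of the 6 genes, 4 lay below their saline mean, and the family's median change was -0.040. Slitrk2 was lower in ethanol pools, with 9.38, 9.35 and 9.23, against 9.47, 9.41 and 9.50 in saline pools. The groups did not overlap, and ethanol pool 3 was again the lowest. Its change was -0.14 ± 0.05, or 0.907-fold (0.836 to 0.983), with unadjusted p = 0.0232 and adjusted p = 0.931 in limma. A second and dimmer probe set did not show it. That set had 7.86, 8.21 and 7.90 in ethanol pools, against 8.02, 7.91 and 7.91 in saline pools (0.04 ± 0.09, unadjusted p = 0.669), and the mean of both gave -0.05 (unadjusted p = 0.411). The brighter set no longer passed without ethanol pool 3 (-0.10, unadjusted p = 0.0768), saline pool 1 (-0.14, unadjusted p = 0.0523) or saline pool 3 (-0.12, unadjusted p = 0.0823), nor in the methods' t-test, which takes each probe set's spread alone (unadjusted p = 0.0569).

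Slitrk4 was another SLITRK gene with separate groups. It had 9.35, 9.36 and 9.36 in ethanol pools, against 9.44, 9.40 and 9.42 in saline pools, a change of -0.06 ± 0.04, or 0.958-fold (0.903 to 1.02). With its very small spread between pools it passed the methods' t-test (unadjusted p = 0.0116 in that test over all probe sets, none of which passed after adjustment), but not limma (unadjusted p = 0.127), which draws each gene's spread towards that of the others. Slitrk3, whose protein acts at inhibitory synapses, had 11.03, 10.98 and 10.90 in ethanol pools, against 11.06, 11.00 and 11.03 in saline pools (-0.06 ± 0.05), with overlapping groups and ethanol pool 3 lowest. Slitrk1, a gene studied in Tourette syndrome, had a change of -0.02 ± 0.06, and Slitrk5 one of 0.03 ± 0.04.

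Slitrk6 had the largest difference of the 36 genes, in a probe set with a very low signal. The authors had already listed Slitrk6 as higher in ethanol from these same arrays, so its result here is not independent of theirs. It encodes a SLITRK protein best known from the innervation of the inner ear. Its levels were 5.23, 5.13 and 5.28 in ethanol pools, against 4.98, 5.09 and 4.89 in saline pools. The groups did not overlap, although ethanol pool 2 and saline pool 2 lay close together. They averaged 5.21 ± 0.08 in ethanol and 4.99 ± 0.10 in saline (SD), and the change was 0.23 ± 0.06 (SE), or 1.17-fold (1.06 to 1.29), with unadjusted p = 0.00576 and adjusted p = 0.931 in limma. It stayed past the unadjusted threshold with any 1 array left out, with changes from 0.18 to 0.28. Its mean of 5.10 was below 5.38, a level that 95% of 1194 olfactory and vomeronasal receptor genes stayed under in these arrays. Such receptors belong to the nose, so this level serves here as a mark of background. Slitrk6 was the only one of the 36 genes below that level.

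**Figure D3:**
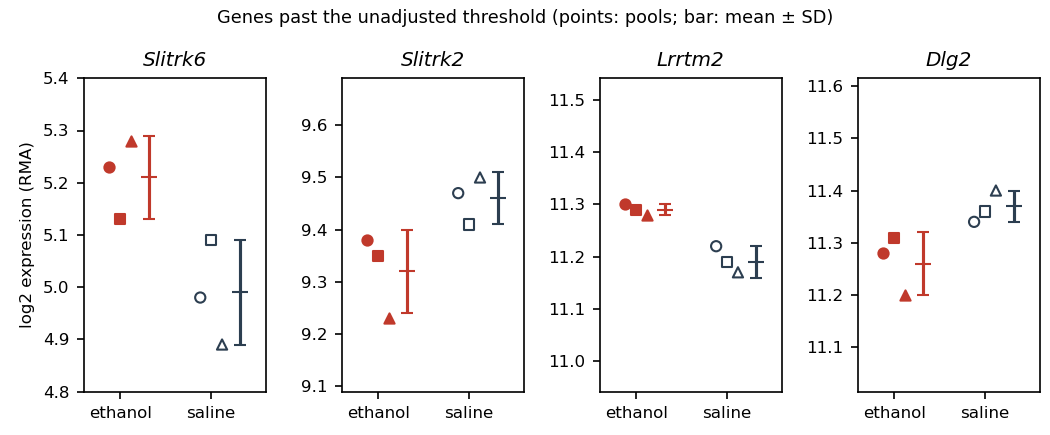
Log2 expression of the 4 genes past the unadjusted threshold in each of 3 ethanol and 3 saline pools, with the mean and SD of each group. Each panel spans the same range on its own axis. Slitrk6 and Lrrtm2 were higher and Slitrk2 and Dlg2 lower in every ethanol pool than in any saline pool.

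The LRFN genes, for SALM adhesion proteins of which some bind PSD-95, showed no gene past the threshold. Lrfn1 had 6.38, 6.54 and 6.38 in ethanol pools, against 6.46, 6.20 and 6.33 in saline pools, the family's largest change at 0.10 ± 0.07 (unadjusted p = 0.21 in limma), with overlapping groups. Without saline pool 1 its change was 0.16 (unadjusted p = 0.0441). Lrfn2 had 8.05, 8.17 and 8.06 in ethanol pools, against 8.13, 8.17 and 8.23 in saline pools. Its change of -0.08 ± 0.05 did not pass, and it gave -0.12 without ethanol pool 2 (unadjusted p = 0.0369). Lrfn3, Lrfn4 and Lrfn5 had changes of 0.04 ± 0.06, -0.02 ± 0.06 and 0.04 ± 0.04. Lrfn4 lies within the gene Pcx, for pyruvate carboxylase, whose change was -0.04 ± 0.04.

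Taking both sides of the list, the 16 scaffold and kinase genes had a median change of 0.011 with 1 past the unadjusted threshold. The 20 adhesion genes had a median of 0.005 with 3 past it. Of all genes 5.22% passed it, and the difference between the sides was not tested. By size, 23 of the 36 genes differed between groups by less than 0.05, 8 by 0.05 to 0.1 and 5 by more. Of the 36, 0 passed 1.2-fold here, beside only 109 of all 19938 genes, so this does not set the list apart. The authors used the same cutoff and listed Slitrk6 past it, while the deposited values gave 1.17-fold for Slitrk6 here. The reason for this difference was not tested. The 95% confidence interval of the fold lay between 0.8 and 1.25 in 35 of the 36 genes, beside 19279 of all 19938 genes. In the list Slitrk6 was the exception, with an upper bound of 1.29. The median standard error was 0.046, near the 0.049 of all genes, and the median SD between pools was 0.051, against 0.060. The list's mean distance from the saline mean was 0.002, 0.015 and -0.014 in ethanol pools 1 to 3, against 0.017, -0.016 and -0.001 in saline pools 1 to 3. Ethanol pool 3 was the lowest of the 6 in 8 genes (22.2%, beside 18.4% of all genes). Saline pool 2 was the lowest in 9 (25%, beside 18.6% of all genes).

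**Figure D4:**
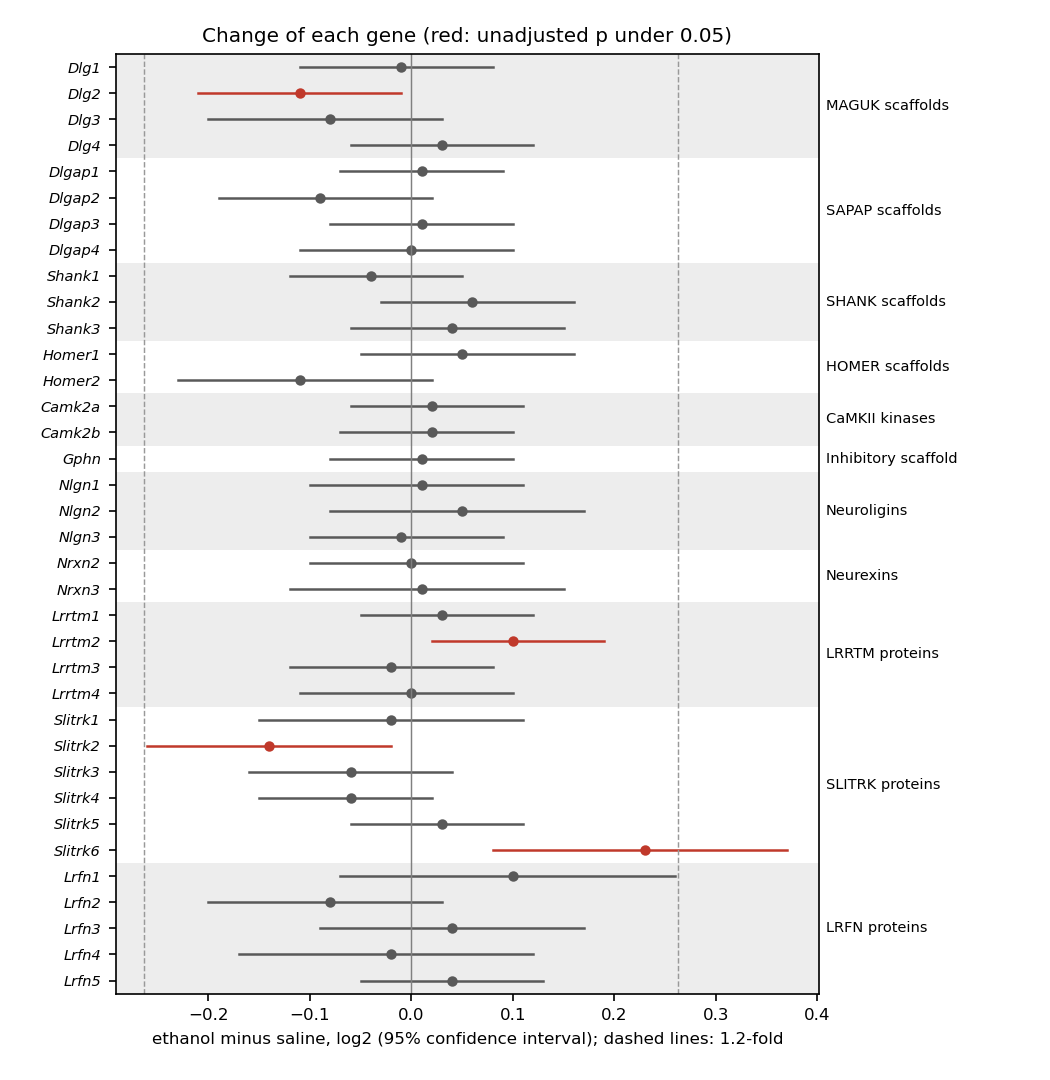
Log2 change, ethanol minus saline, of each of the 36 genes with its 95% confidence interval from limma. Red marks the 4 genes at an unadjusted p under 0.05, and dashed lines mark 1.2-fold in either direction. The points scatter on both sides of 0, and the interval of Slitrk6 alone reaches past 1.25-fold.

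Other genes of the same synaptic pathways were set beside the list, and 59 of 66 were measured. Of these, 18 lay above and 41 below their saline mean, while all genes split into 9994 above and 9944 below. The median of the 59 was -0.015, with changes from -0.11 to 0.09. This median was 0.004 without saline pool 1 and -0.032 without saline pool 2. Beside 5.22% of all genes, 1 of the 59 passed at an unadjusted p under 0.05. It was Begain, for a protein that binds the guanylate kinase domain of PSD-95, with 8.69, 8.58 and 8.67 in ethanol pools, against 8.73, 8.74 and 8.80 in saline pools. The groups did not overlap, and its change was -0.11 ± 0.04, or 0.925-fold (0.861 to 0.993), with unadjusted p = 0.0341 and adjusted p = 0.931 in limma. Without ethanol pool 2 or without saline pool 3, 0 of the 59 passed. In 6 of the 59 (10.2%) the pools were separate, a share near the 10.4% of all genes. All 6 were lower in ethanol, where 5.09% of all genes were separate and lower. They were Begain, the SynCAM family gene Cadm4, the netrin-G ligand gene Lrrc4c, the CaMKII gamma subunit gene Camk2g, and the exchange factor genes Kalrn and Iqsec2. Presynaptic partners such as the receptor phosphatase genes and the cerebellins had 0 of 14 past the threshold, with 12 of 14 below saline and a median of -0.033. The other postsynaptic adhesion genes had 0 of 20 and the other scaffold genes 1 of 25 past it, each with a median of -0.005.

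None of the 12 marker genes of hippocampal neurons was below the receptor gene level. These genes of dentate, CA1, CA2 and CA3 neurons had 0 past the unadjusted threshold and a median change of 0, and 8 general neuronal markers had 0 and a median of -0.02. Of 16 markers of neighbouring thalamus, 11 were higher in ethanol pools at that threshold and 0 lower, beside 2.80% and 2.41% of all genes. After adjustment 0% of all genes passed. The list holds Tcf7l2, Synpo2 and Vipr2, which the authors reported as higher in ethanol from these same arrays. Its count is therefore not independent of those results. The thalamus markers had a median change of 0.41. Their mean distance from saline was 0.75, 0.281 and 0.13 in ethanol pools 1 to 3, against -0.012 to 0.018 in saline pools. Their summed linear level was 4615 to 6677 in ethanol pools and 4243 to 4286 in saline pools, and the 3 markers Shox2, Gbx2 and Tnnt1 were below the receptor gene level. Of 16 measured choroid plexus markers, 3 were higher, with means of 1.045, -0.274 and 0.62 in ethanol pools, against -0.164, -0.014 and 0.179 in saline pools, and summed levels of 8943 to 16926 in ethanol and 9462 to 11459 in saline. Of 14 oligodendrocyte markers, 4 were lower, beside 2.41% of all genes, with a median of -0.09. The 6 interneuron, 8 astrocyte and 6 microglia markers had 0 past the threshold, with medians of 0.02, -0.03 and -0.07.

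Slitrk6 lay 0.243, 0.139 and 0.294 above its saline mean in ethanol pools 1 to 3. In saline pools 1 to 3 it lay at -0.007, 0.102 and -0.095 from that mean. Lrrtm2 lay 0.113, 0.102 and 0.089 above its saline mean in ethanol pools 1 to 3, and at 0.027, -0.004 and -0.023 in saline pools. The part of thalamus, choroid plexus or oligodendrocyte RNA in the changes of Slitrk6, Lrrtm2, Slitrk2 and Dlg2 was not tested. In bulk tissue, fewer cells of a type and less RNA per cell cannot be told apart.

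**Figure D5:**
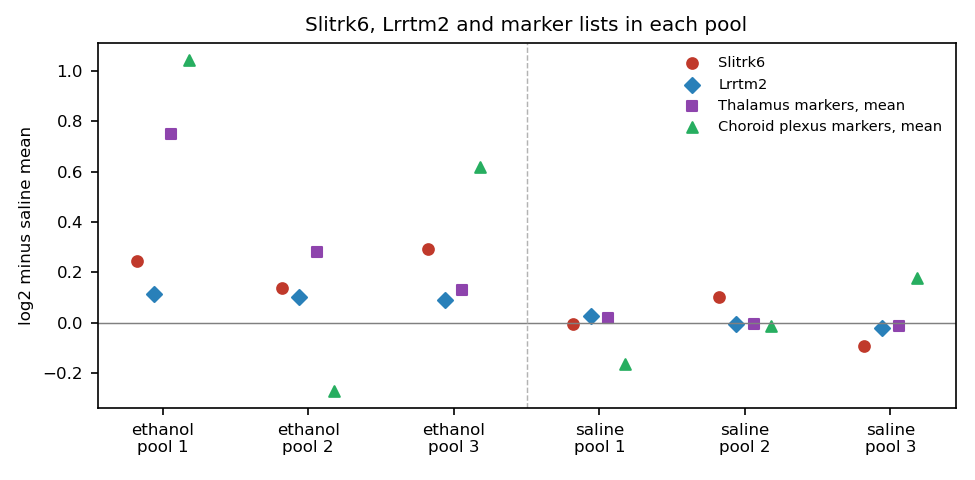
Log2 level minus the saline mean in each pool for Slitrk6, Lrrtm2 and the means of 16 thalamus and 16 choroid plexus markers, with ethanol pools left of the dashed line and saline pools right of it. In ethanol pools the marker means run from 0.13 to 0.75 for thalamus and from -0.274 to 1.045 for choroid plexus. Lrrtm2 lies between 0.089 and 0.113 in them.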

How the data were processed

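Expression was measured on 6 arrays, 3 of pooled ethanol and 3 of pooled saline mice. The authors summarized the probes of each gene by RMA, and the deposited log2 values range from 3.51 to 13.9 with array medians of 5.84 to 5.89. Neither the RMA software nor a genome build for the array is given in the sources used here. Arrays correlated at 0.9985 or more across probe sets. Their number limits the precision.

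Values were used as deposited, without a filter. Of 35556 probe sets, 21789 have 1 gene symbol in the platform annotation, 1621 several and 12146 none. All 23410 that carry a symbol were fitted in limma 3.58.1 (R 4.3.3) with lmFit and eBayes. Tests were two-sided and without covariates, with Benjamini-Hochberg adjustment over all of these probe sets. The methods name an ANOVA, which with 2 groups is a t-test, called the methods' t-test here. With 3 pools a group, exact permutation cannot reach a p below 0.1, so no such test was run. Standard errors and intervals are those of limma. The labels name no batch. Promoter windows and host genes come from RefSeq tables of GRCm38.p6, in which all 36 symbols were found, 26 of them with a window. Figures were drawn with matplotlib 3.10.9.

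The genes, the related and marker lists and the alternatives were chosen with earlier results of these data known. Every gene of the list is named, with pool values for those past an unadjusted p under 0.05, those with separate pools and the largest change of each family. Pool values of Dlg3, Slitrk3 and Lrfn2 were added after they were seen. Alternatives were the methods' t-test, a block for the replicate number, quantile normalization, median centring, filters at the receptor gene level and at the median level, averaging the probe sets of a gene, only probe sets with 1 symbol, an intensity trend, array weights, and 1 array at a time left out. Arrays of histone marks, DNA methylation and miRNAs were not analysed here.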

Additional observations from a re-analysis of the deposited data

How the results depend on the processing

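Over 10 alternative settings and the 6 fits that left out 1 array, 0 of the 36 genes passed after adjustment in limma or the methods' t-test (adjusted p from 0.575 to 1). The count at an unadjusted p under 0.05 was 4 as reported, 2 with the replicate block and 1 to 5 with 1 array left out, where counts over all genes were 1040, 991 and 727 to 1259. With array weights it was 4, beside 1538 of all genes. Under the block, Dlg2 (unadjusted p = 0.072) and Lrrtm2 (unadjusted p = 0.0506) no longer passed. Pools with the same number had correlations of -0.049, -0.022 and 0.059 in their deviations, so the numbers were not taken as pairs. The labels do not name the litters in each pool, so the reported fit leaves out the litter matching of the groups. These correlations cannot show whether that matching matters. Dlg2 passed in 10 of 16 alternatives, missing also with median centring (unadjusted p = 0.0586 in limma), Lrrtm2 in 11 of 16, Slitrk2 in 11 of 16, missing in the methods' t-test (unadjusted p = 0.0569) and with the mean of its probe sets, and Slitrk6 in 14 of 14, since both filters removed it. The cause was not tested except where an array or probe set was removed. The median change of the 36 genes lay between -0.003 and 0.013 with 1 array left out. Of the related genes, 2 passed with array weights and 0 to 2 with 1 array left out. Of all genes, 537 passed with the filter at the receptor gene level and 417 with that at the median, where fewer genes were tested, beside 1040. All genes split into 559 higher and 481 lower as reported, 526 and 575 after quantile normalization, 228 and 309 with the filter at the receptor gene level, 157 and 260 with that at the median, and 712 and 439 without ethanol pool 2. The sign of 12 genes changed in some setting, all with reported changes of at most 0.037 in size. Quantile normalization gave 0.004 for Dlgap4 and 0.003 for Lrrtm4, and array weights gave -0.011 for Nrxn2, 0.025 for Lrrtm4 and 0.015 for Lrfn4. With 1 array left out, changes ran from -0.033 to 0.004 for Dlg1, -0.007 to 0.033 for Dlgap3, -0.047 to 0.017 for Dlgap4, -0.001 to 0.033 for Gphn, -0.034 to 0.036 for Nlgn1, -0.030 to 0.011 for Nlgn3, -0.037 to 0.025 for Nrxn2, -0.036 to 0.059 for Nrxn3, -0.036 to 0.027 for Lrrtm4, -0.071 to 0.013 for Slitrk1, -0.014 to 0.092 for Lrfn3 and -0.084 to 0.021 for Lrfn4. With 3 pools per group the median standard error was 0.046, which limits how small a change could be told from 0.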
